A study of Mus musculus with 13 samples.

Results

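The genes described here are 50 mouse genes of DNA replication and mitosis, among the 48709 gene rows of each count table. They were taken as a list of symbols, matched to the Ensembl identifiers of the tables through GENCODE names, and all 50 were found. The list was drawn up because Polq, Wdhd1 and Cdc45 had been seen to be higher in motoneuron samples of mice given the AAV-miR SOD1 vector. Levels in that group against either control group, and the counts of genes past a threshold given with them, are therefore a description, and only the comparison of AAV-miR ctrl with non-injected mice is read as a test. That comparison was not itself used in the choice, but its libraries are the controls of the comparisons that were.

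All mice carried the SOD1-G93A transgene, a mutant human SOD1 that causes motoneuron degeneration and is used as a model of amyotrophic lateral sclerosis, and all were 65 days old. Mice of the AAV-miR SOD1 group (n = 4) received, into the cerebral ventricles on postnatal day 2, an adeno-associated virus from which astrocytes express an artificial microRNA directed at human SOD1. AAV-miR ctrl mice (n = 5) received the control vector by the same route and at the same age, and littermates of the non-injected group (n = 4) carried the transgene without any vector. Each library came from 500 motoneurons of 1 mouse, recognised by cresyl violet staining and cut by laser from sections of lumbar cord that had been frozen inside its vertebrae. No library from mice without the transgene was analysed here, so no level is set against a healthy motoneuron. The spread behind every test is the spread between mice.

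Cells about to divide license their replication origins by loading the MCM helicase, activate it with Cdc45 and the GINS complex, copy the DNA with polymerases on the PCNA clamp, and then condense and pull apart the chromosomes under the control of cyclin-dependent, Aurora and Polo kinases. E2F factors switch on the replication genes, and the B-MYB and FOXM1 complexes, through CHR elements, the mitotic genes. Mature neurons have left the cell cycle, and these transcripts are mostly known from dividing cells such as progenitors of the blood, glial precursors and activated microglia.

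Reads assigned to genes numbered between 13897189 and 37414222 per library, and levels are CPM, the count divided by the library's total of such reads in megacounts, with totals scaled by the trimmed mean of M values (TMM). At these depths 3 counts corresponded to 0.0802 to 0.216 CPM before that scaling. Every member had reads in all 13 libraries, with 15 counts as the lowest and 7784 as the highest, and all 50 passed the filter on low counts among the 17403 genes tested. Reads aligned to more than 1 place made up 51.1% to 56.8% of the tables' reads in AAV-miR SOD1, 44.6% to 53.8% in AAV-miR ctrl and 42.3% to 52.8% in non-injected libraries, and their part in the results was not tested. In control libraries with replicate numbers above 4 the share was 42.3% to 46.6%, and in the other controls 49.9% to 53.8%. No AAV-miR SOD1 library had a number above 4. For replicate 3 of the AAV-miR ctrl group and replicate 3 of the non-injected group, the header inside the table contradicted the sample label, and the label was followed.

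The 50 transcripts were together about 2.18-fold more abundant in AAV-miR SOD1 libraries than in the 9 control libraries. Their summed level was 4748, 3966, 1862 and 2736 CPM in AAV-miR SOD1 replicates 1 to 4, which gives 3328 ± 1281 CPM (SD, n = 4). In AAV-miR ctrl replicates 1, 3, 4, 5 and 6 it was 2599.9, 1562, 1080.5, 1212 and 1530.4 CPM, or 1597 ± 597 CPM (SD, n = 5). Non-injected replicates 2, 3, 5 and 6 had 1560.3, 941, 2066 and 1161 CPM, or 1432 ± 494 CPM (SD, n = 4). Replicates 1, 2 and 4 of AAV-miR SOD1 stood above every control, while its replicate 3 lay below replicate 1 of AAV-miR ctrl and replicate 5 of the non-injected group, so the groups overlapped. In pooled cells, more cells of a type and more RNA per cell cannot be told apart, and neither can fewer cells and less RNA.

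Against AAV-miR ctrl the fitted log2 fold change was above 0 for all 50 members (46.3% of all genes tested were above 0), with a median of 1.04 beside -0.04 over all genes, and 28 members exceeded 1 (5.68% of all genes). Against non-injected mice it was above 0 for 49 members (44.9% of all genes), with a median of 1.19 beside -0.09, and 43 members exceeded 1 (9.23%). With both control groups averaged, 50 members were above 0 (45.8% of all genes), the median was 1.12 beside -0.06, and 41 members exceeded a log2 fold change of 1 (6.79% of all genes). Since the same 4 AAV-miR SOD1 libraries enter each time, these are not independent of each other.

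None of the 50 members passed an adjusted p of 0.05 in edgeR's quasi-likelihood test in any of the comparisons with AAV-miR SOD1 (0% of all genes tested were called). At an unadjusted p under 0.05, edgeR placed 43 members higher against AAV-miR ctrl (5.99% of all genes), 47 against non-injected mice (9.36%) and 48 against both control groups (10.2%), and none lower (8.54%, 11.5% and 12.1% of all genes). DESeq2 called 6, 31 and 44 members at its adjusted threshold (1.03%, 5.89% and 8.74% of all genes), and limma-voom with quality weights called 0, 0 and 41 (0%, 0% and 8.4%). Without AAV-miR ctrl replicate 1, edgeR called 43 members against both control groups (9.84% of all genes were then called), and without AAV-miR SOD1 replicate 3 it called 16 (0.679%). Since the list was chosen on values of these contrasts, none of these counts supports a difference between the groups.

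**Figure D1:**
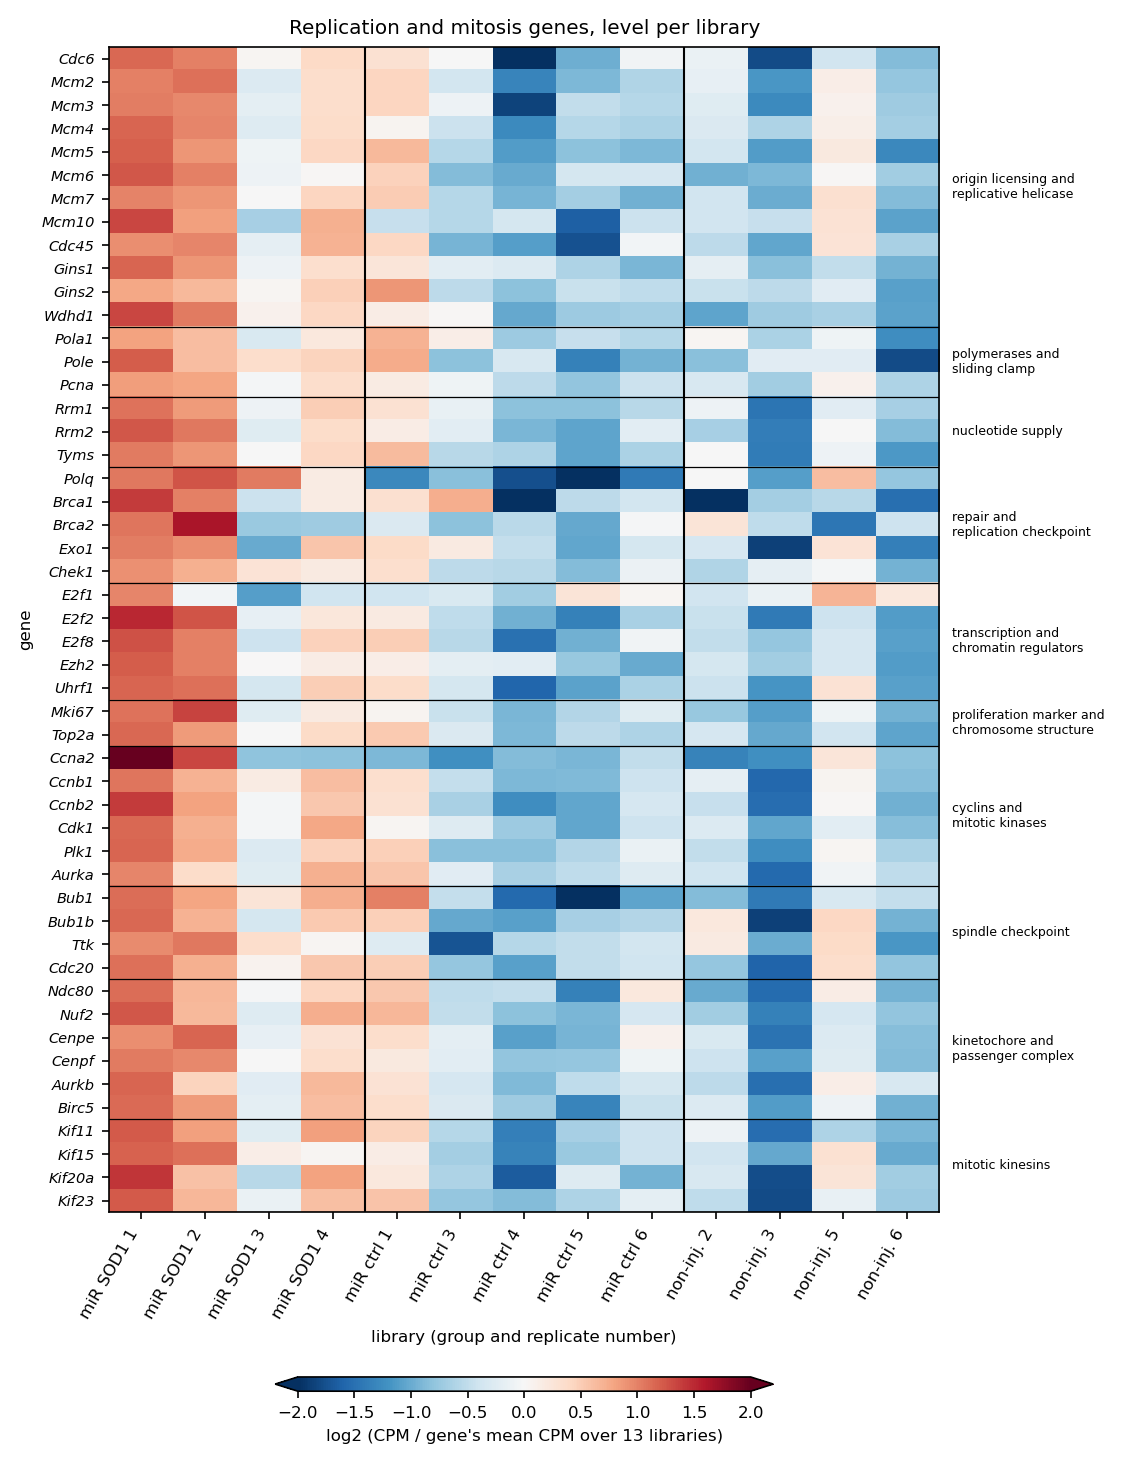
Heat map of the 50 members (rows, ordered by role) in the 13 libraries (columns, by group), colour giving the log2 ratio of CPM to the gene's mean CPM over the 13 libraries. AAV-miR SOD1 replicates 1 and 2 are the highest columns for most genes, replicate 3 is the palest of its group, and the highest control columns are replicate 1 of AAV-miR ctrl and replicate 5 of the non-injected group.

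Polq encodes DNA polymerase theta, which joins broken ends through short homologies, and was the member with the largest fold change against AAV-miR ctrl and against both control groups and the lowest level per transcript length, 0.391 CPM per kilobase of exon (ENSMUSG00000034206, chr16:37011786-37095417 in GRCm38). Its level, given for the libraries in order of their replicate numbers as for every gene that follows, was 7.83, 9.07, 7.77 and 4.24 CPM in AAV-miR SOD1, 1.55, 2.12, 1.12, 0.526 and 1.42 CPM in AAV-miR ctrl and 3.78, 1.77, 5.82 and 2.21 CPM in non-injected mice. All 4 AAV-miR SOD1 libraries lay above all 5 AAV-miR ctrl libraries, whereas non-injected replicate 5 exceeded AAV-miR SOD1 replicate 4. In the fit it differed on the log2 scale by 2.42 ± 0.45 (SE) from AAV-miR ctrl, by 1.09 ± 0.47 (SE) from non-injected mice, below the members' median of 1.19, and by 1.76 ± 0.38 (SE) from both. Over all 13 libraries the highest level was 17.3-fold the lowest, the widest range of any member.

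Wdhd1, also called AND-1, tethers DNA polymerase alpha to the replicative helicase (ENSMUSG00000037572, chr14:47240944-47276857). It stood at 34.6, 28.1, 14.5 and 18.3 CPM in AAV-miR SOD1, 15.3, 13.9, 6.75, 8.28 and 8.60 CPM in AAV-miR ctrl and 6.64, 8.43, 8.76 and 6.56 CPM in non-injected mice. The AAV-miR SOD1 libraries were all above the non-injected ones, and their replicate 3 was below AAV-miR ctrl replicate 1. The log2 fold change against both control groups was 1.41 ± 0.26 (SE).

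Cdc45 is the helicase subunit whose loading turns a licensed origin into an active fork (ENSMUSG00000000028, chr16:18780447-18811987). Its level was 39.1, 40.4, 18.1 and 33.2 CPM in AAV-miR SOD1, 27.2, 10.8, 9.52, 6.15 and 19.7 CPM in AAV-miR ctrl and 14.3, 10.02, 24.9 and 13.1 CPM in non-injected mice. Replicates 1, 2 and 4 of AAV-miR SOD1 exceeded every control, and replicate 3 was passed by AAV-miR ctrl replicates 1 and 6 and by non-injected replicate 5. The log2 fold change against both control groups was 1.11 ± 0.35 (SE). Exons of Cdc45 share 5.96% of their bases with its neighbour Ufd1 in GENCODE, where the counting of reads is uncertain.

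Promoters are shown for these 3 genes, whose levels led to the list, and for the 2 further members with most matches to 3 cell cycle motifs, because genes that move together are often compared for shared promoter elements. Each runs 5′ to 3′ over 300 bases on the gene's strand, from 250 bases before the RefSeq transcription start to 50 after it, with the start at base 251. Capitals mark matches on either strand to an E2F site (TTTCCCGC, TTTCGCGC, TTTGCCGC or TTTGGCGC), to the CHR element (TTTGAA) or to the CCAAT box (CCAAT); the letters of these motifs do not contain each other. In RefSeq's GRCm38.p6 the windows lie at chr16:37011536-37011835, plus strand, for Polq, at chr14:47276808-47277107, minus strand, for Wdhd1, and at chr16:18811923-18812222, minus strand, for Cdc45. Those of Top2a and Cdk1 lie at chr11:99024140-99024439, minus strand, and at chr10:69352863-69353162, minus strand.
Polq: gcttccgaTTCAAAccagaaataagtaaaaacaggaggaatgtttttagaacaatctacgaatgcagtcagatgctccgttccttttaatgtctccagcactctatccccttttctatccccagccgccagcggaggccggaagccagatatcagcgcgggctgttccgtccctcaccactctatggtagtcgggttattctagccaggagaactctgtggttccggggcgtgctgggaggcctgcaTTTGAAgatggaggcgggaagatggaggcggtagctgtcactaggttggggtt
Wdhd1: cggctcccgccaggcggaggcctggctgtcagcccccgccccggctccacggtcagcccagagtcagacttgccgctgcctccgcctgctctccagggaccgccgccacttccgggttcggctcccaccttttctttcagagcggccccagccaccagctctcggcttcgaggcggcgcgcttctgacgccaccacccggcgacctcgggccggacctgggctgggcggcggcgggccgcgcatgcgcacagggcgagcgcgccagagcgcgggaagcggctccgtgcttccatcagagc
Cdc45: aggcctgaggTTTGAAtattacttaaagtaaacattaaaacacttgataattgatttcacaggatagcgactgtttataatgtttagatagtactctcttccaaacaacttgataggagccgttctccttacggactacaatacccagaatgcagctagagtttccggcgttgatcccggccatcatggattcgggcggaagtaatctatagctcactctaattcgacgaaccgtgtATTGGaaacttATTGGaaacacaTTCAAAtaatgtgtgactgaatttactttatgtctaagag
Top2a: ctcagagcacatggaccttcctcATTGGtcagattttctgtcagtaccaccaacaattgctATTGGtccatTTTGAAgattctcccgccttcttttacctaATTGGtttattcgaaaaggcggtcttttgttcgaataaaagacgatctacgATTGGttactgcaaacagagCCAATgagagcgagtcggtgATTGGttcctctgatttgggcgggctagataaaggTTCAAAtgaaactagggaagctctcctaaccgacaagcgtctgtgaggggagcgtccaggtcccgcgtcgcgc
Cdk1: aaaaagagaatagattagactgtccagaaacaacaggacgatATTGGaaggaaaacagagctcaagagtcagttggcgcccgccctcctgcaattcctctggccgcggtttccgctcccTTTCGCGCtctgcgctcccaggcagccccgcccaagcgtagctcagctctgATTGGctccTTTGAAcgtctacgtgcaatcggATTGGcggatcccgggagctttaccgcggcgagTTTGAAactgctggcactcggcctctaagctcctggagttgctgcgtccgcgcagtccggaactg

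The Polq window holds 2 CHR matches, of which the second spans the start at bases 248 to 253, and no CCAAT box. In Cdc45 there are 2 CHR matches and 2 CCAAT boxes, the latter at bases 238 to 242 and 249 to 253. The Wdhd1 window has none of these letters. Top2a carries 6 CCAAT boxes and 2 CHR matches, and Cdk1 carries 3 CCAAT boxes, 2 CHR matches and an E2F match at bases 120 to 127.

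The RefSeq promoter table held 42 of the 50 members, in 45 windows. E2F letters occurred in 26.7% of them, beside 2.26% of all 32851 promoters of the same length. CHR letters occurred in 42.2% beside 17.9%, and the CCAAT box in 75.6% beside 37.4%. The 3 lists of related cell cycle genes described further below, with 120 windows, had E2F letters in 19.2%, CHR letters in 33.3% and the CCAAT box in 53.3%. High shares were therefore not particular to the members. GC content averaged 59.3% in the members' windows and 53.8% in all. By role, E2F letters were in 5 of 10 windows of the origin and helicase genes and in none of the 9 windows of the spindle checkpoint and kinetochore genes. CHR letters were in 4 of 5 windows of the cyclins and mitotic kinases and in 3 of 3 of the kinesins, but in 0 of 3 of the nucleotide supply genes. These are matches of letters, not sites of binding.

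Among the 12 origin licensing and helicase genes, all 12 had a positive log2 fold change against both control groups, between 0.85 and 1.41 with a median of 1.10. The MCM genes Mcm2 to Mcm7 encode the ring of the helicase. Mcm6 had the highest mean CPM of this group, at 224, 191, 88.1 and 95.96 CPM in AAV-miR SOD1, 131, 51.8, 47.1, 73.95 and 75.2 CPM in AAV-miR ctrl and 48.5, 51.1, 96.2 and 58.3 CPM in non-injected mice (ENSMUSG00000026355). Its 2 highest values were AAV-miR SOD1 replicates 1 and 2, and AAV-miR ctrl replicate 1 lay above AAV-miR SOD1 replicates 3 and 4. For Mcm6 the log2 fold change was 1.11 ± 0.31 (SE), and the other 5 genes of the ring lay between 1.01 (Mcm3) and 1.14 (Mcm5). Cdc6, the loader of the helicase, had 1.23 ± 0.37 (SE), and Mcm10, which helps to fire the origin, had 1.19 ± 0.33 (SE).

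Gins1 and Gins2, subunits of the GINS complex that binds Cdc45, both had AAV-miR SOD1 libraries that lay above all non-injected ones and overlapped with AAV-miR ctrl. Gins1 was 27.7, 22.99, 11.6 and 15.7 CPM in AAV-miR SOD1 and 10.98, 6.95, 8.81 and 6.44 CPM in non-injected mice, and AAV-miR ctrl replicate 1, at 14.7 CPM, exceeded AAV-miR SOD1 replicate 3. Gins2, at 8.68 to 15.7 CPM in non-injected mice, reached its highest level of all 13 libraries in AAV-miR ctrl replicate 1, at 33.8 CPM beside 31.2, 28.9, 18.9 and 25.5 CPM in AAV-miR SOD1, and its log2 fold change against both control groups was 0.85 ± 0.29 (SE). Of its exon bases, 67.3% are shared with Gse1 in GENCODE, so the level of Gins2 is uncertain.

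The polymerase and clamp genes had the lowest median log2 fold change of the 10 roles, 0.85 against both control groups. Pcna, the clamp that holds polymerases on DNA, was 82.9, 80.5, 45.02 and 59.5 CPM in AAV-miR SOD1, 52.2, 43.9, 32.2, 26.97 and 34.6 CPM in AAV-miR ctrl and 37.2, 28.7, 49.4 and 30.4 CPM in non-injected mice. Replicates 1, 2 and 4 of AAV-miR SOD1 were above all controls and replicate 3 lay inside their range, with a log2 fold change of 0.85 ± 0.22 (SE). Pola1, the catalytic subunit of the polymerase that starts each strand, had 0.63 ± 0.30 (SE), and Pole, the polymerase of the leading strand, 1.19 ± 0.37 (SE). AAV-miR ctrl replicate 1 had 31.1 CPM of Pola1, above AAV-miR SOD1 replicates 2, 3 and 4 at 29.6, 15.7 and 22.2 CPM.

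Nucleotide supply genes followed the same libraries. Rrm2, the small subunit of ribonucleotide reductase, had the highest level per length of all 50 members, 52.6 CPM per kilobase of exon (ENSMUSG00000020649). In CPM it was 347, 302, 124 and 188 CPM in AAV-miR SOD1, 162, 125, 77.2, 70.4 and 126 CPM in AAV-miR ctrl and 92.4, 55.98, 145 and 80.03 CPM in non-injected mice. Against both control groups the log2 fold change was 1.23 ± 0.30 (SE) for Rrm2, 1.08 ± 0.28 (SE) for its partner Rrm1 and 1.07 ± 0.33 (SE) for the thymidylate synthase gene Tyms. For Rrm1 and Tyms the AAV-miR SOD1 libraries lay above all non-injected libraries, but only just. AAV-miR SOD1 replicate 3 and non-injected replicate 2 had 101.93 and 101.81 CPM of Rrm1, and 39.425 and 39.35 CPM of Tyms. For Rrm2 non-injected replicate 5 exceeded AAV-miR SOD1 replicate 3. For Rrm1 and Tyms AAV-miR ctrl replicate 1, at 135 and 61.2 CPM, also exceeded AAV-miR SOD1 replicate 3.

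Repair and checkpoint genes, 5 with Polq, together spanned 32.6 to 78.7 CPM with AAV-miR SOD1 and 18.4 to 39.3 CPM across the controls. Brca1 and Brca2, which act in repair by homologous recombination, stood 1.31 ± 0.45 (SE) and 1.14 ± 0.42 (SE) higher on the log2 scale than both control groups. For Brca2 the difference rested on 2 mice, since AAV-miR SOD1 libraries had 16.2, 24.05, 4.60 and 4.74 CPM and the controls 2.82 to 9.23 CPM. Chek1, the kinase that halts the cycle when forks stall, had 15.8, 13.7, 10.1 and 9.48 CPM in AAV-miR SOD1, all above the non-injected values of 5.54, 7.35, 8.12 and 4.35 CPM. AAV-miR ctrl replicate 1, at 10.6 CPM, exceeded AAV-miR SOD1 replicates 3 and 4, and the log2 fold change of Chek1 was 0.89 ± 0.26 (SE). Exo1, an exonuclease of mismatch and break repair, had 0.94 ± 0.41 (SE).

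The E2F genes, which are both regulators and targets of the cycle, stood at both ends of the list. E2f2, an activator, was 181, 153, 57.1 and 74.6 CPM in AAV-miR SOD1, 71.9, 44.9, 32.8, 25.1 and 40.5 CPM in AAV-miR ctrl and 46.8, 23.97, 48.1 and 29.3 CPM in non-injected mice (ENSMUSG00000018983). Only AAV-miR SOD1 replicate 3 fell inside the control range, below AAV-miR ctrl replicate 1, and the log2 fold change was 1.54 ± 0.32 (SE). E2f1, the other activator in the list, was 50.04, 24.4, 11.8 and 19.2 CPM in AAV-miR SOD1, 19.3, 20.6, 15.7, 30.4 and 26.2 CPM in AAV-miR ctrl and 19.6, 23.2, 40.8 and 29.5 CPM in non-injected mice (ENSMUSG00000027490). It was highest in AAV-miR SOD1 replicate 1 and lowest in AAV-miR SOD1 replicate 3, and its group medians put non-injected mice first, unlike any other member. Its log2 fold change of 0.07 ± 0.32 (SE) was smaller than its error, and became -0.45 without AAV-miR SOD1 replicate 1. E2f8, a repressor that closes the E2F programme, had 1.21 ± 0.34 (SE), and the chromatin regulators Ezh2 and Uhrf1 had 1.15 ± 0.26 (SE) and 1.21 ± 0.36 (SE).

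Mki67, the gene of the Ki-67 antigen used to mark dividing cells, was 185, 223, 73.4 and 99.4 CPM in AAV-miR SOD1, 90.4, 64.2, 46.6, 58.4 and 74.1 CPM in AAV-miR ctrl and 51.5, 40.9, 82.3 and 45.5 CPM in non-injected mice (ENSMUSG00000031004). Top2a, the topoisomerase that untangles chromosomes before they part, was 244, 199, 109 and 142 CPM in AAV-miR SOD1, 158, 89.8, 58.9, 76.1 and 71.4 CPM in AAV-miR ctrl and 86.7, 53.9, 84.2 and 52.6 CPM in non-injected mice (ENSMUSG00000020914). For Mki67, AAV-miR SOD1 replicates 1, 2 and 4 exceeded all controls. Top2a was higher in every AAV-miR SOD1 library than in any non-injected library, and AAV-miR ctrl replicate 1 exceeded AAV-miR SOD1 replicates 3 and 4. Log2 fold changes against both control groups were 1.26 ± 0.28 (SE) and 1.13 ± 0.27 (SE).

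Cyclins and mitotic kinases held the second largest value of the list. Ccna2, the cyclin that drives S phase and entry into mitosis, was 327, 204, 46.4 and 45.96 CPM in AAV-miR SOD1, 43.4, 34.8, 44.4, 43.3 and 57.6 CPM in AAV-miR ctrl and 32.2, 34.7, 96.1 and 46.1 CPM in non-injected mice (ENSMUSG00000027715). Its log2 fold change of 1.69 ± 0.44 (SE) came with high values in AAV-miR SOD1 replicates 1 and 2, while replicates 3 and 4 lay inside the control range and below replicate 6 of AAV-miR ctrl and replicate 5 of non-injected mice. Leaving out AAV-miR SOD1 replicate 1 lowered the value to 1.03. In GENCODE 12.5% of the exon bases of Ccna2 are shared with Exosc9.

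Cdk1, the kinase that triggers mitosis, was at 169, 125, 73.7 and 130.5 CPM in AAV-miR SOD1, 78.3, 63.8, 46.2, 36.96 and 56.9 CPM in AAV-miR ctrl and 62.7, 37.2, 65.9 and 41.98 CPM in non-injected mice. The lowest AAV-miR SOD1 library was above every non-injected library and below AAV-miR ctrl replicate 1 alone, with a log2 fold change of 1.20 ± 0.24 (SE). Ccnb1 and Ccnb2, the cyclins that activate it, had 1.12 ± 0.29 (SE) and 1.32 ± 0.32 (SE). Plk1, which acts at centrosomes and kinetochores, had 1.01 ± 0.30 (SE). Aurka, the kinase of spindle poles, had 0.86 ± 0.28 (SE), and here AAV-miR ctrl replicate 1, at 63.8 CPM, lay far above the other AAV-miR ctrl values of 27.6 to 36.9 CPM.

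The spindle checkpoint, which delays chromosome separation until every kinetochore is attached, was represented by Bub1, Bub1b, Ttk and Cdc20. Ttk, its upstream kinase, was 15.98, 17.1, 10.6 and 8.47 CPM in AAV-miR SOD1 and 6.94, 2.51, 5.55, 5.89 and 6.40 CPM in AAV-miR ctrl. With Polq it was the only member whose AAV-miR SOD1 libraries all exceeded all AAV-miR ctrl libraries (1.27% of all genes did so), but non-injected values of 9.41, 4.16, 10.8 and 3.70 CPM overlapped. Cdc20, the activator of the anaphase-promoting complex and the gene of this role with the highest mean CPM, was 1.09 ± 0.33 (SE) higher on the log2 scale. Bub1 and Bub1b had 1.31 ± 0.43 (SE) and 0.96 ± 0.39 (SE).

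Kinetochore and passenger genes lay close together, between 0.96 and 1.19 on the log2 scale for all 6. Birc5, which encodes survivin of the chromosomal passenger complex, was 215, 177, 85.7 and 149.9 CPM in AAV-miR SOD1, 125, 79.8, 59.7, 39.1 and 72.03 CPM in AAV-miR ctrl and 80.4, 44.9, 91.1 and 50.3 CPM in non-injected mice (ENSMUSG00000017716). AAV-miR SOD1 replicates 1, 2 and 4 exceeded all controls and replicate 3 did not. Ndc80 and Nuf2, which hold microtubules at the kinetochore, had 1.04 ± 0.35 (SE) and 1.19 ± 0.31 (SE). Cenpe and Cenpf, large kinetochore proteins, had 1.09 and 1.10, and Aurkb, the kinase of the passenger complex, 0.96. The 4 mitotic kinesins, motors of the spindle and the midbody, ranged from 1.14 for Kif23 to 1.30 for Kif11, which pushes the spindle poles apart, with Kif15 at 1.17 and Kif20a at 1.21 between them. For Kif20a 29.3% of exon bases are shared with Cdc23, so its level is uncertain.

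**Figure D2:**
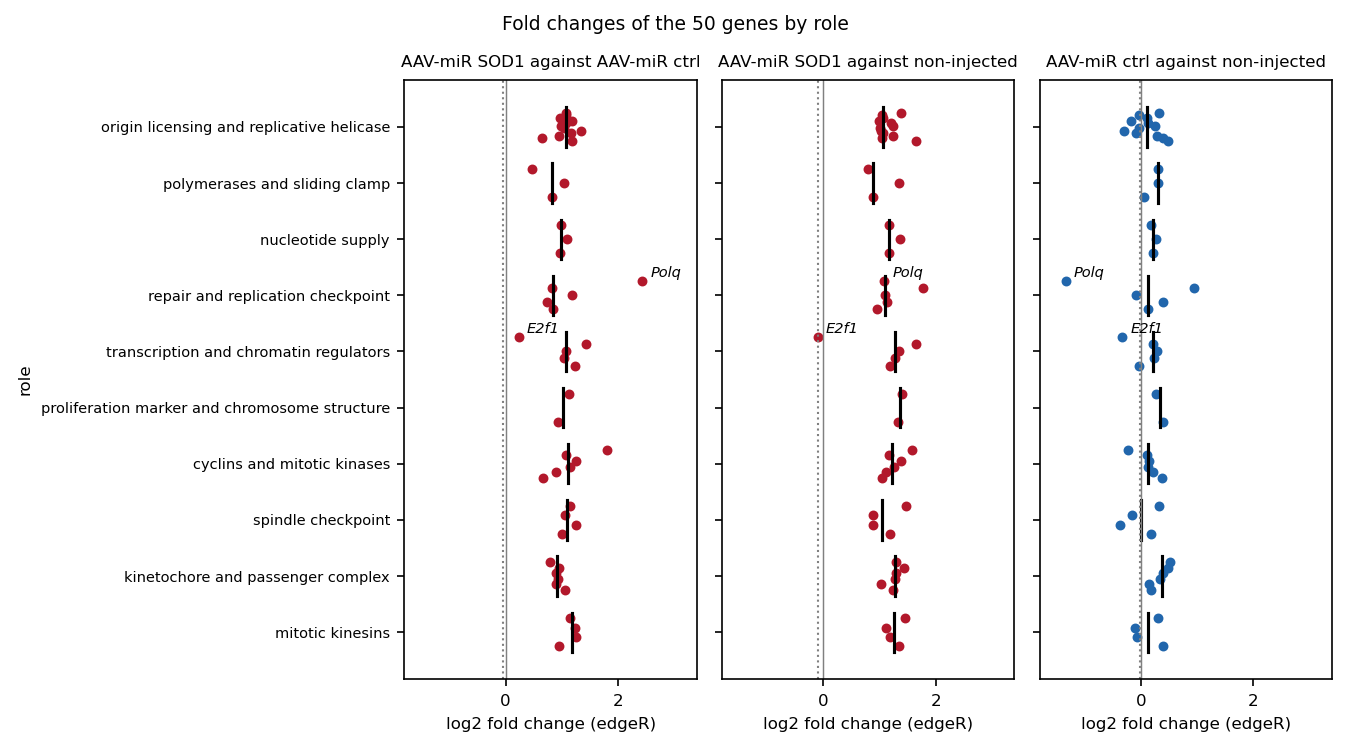
Log2 fold changes of the 50 members by role (edgeR, 13 libraries) for AAV-miR SOD1 set against each control group (left and middle panels) and for the control vector set against no injection (right panel). Each dot is a gene, black bars are the medians of the roles and the dotted line is the median of all genes tested. In the left panel Polq is highest at 2.42 and E2f1 lowest at 0.23, and in the right panel the genes lie on both sides of 0 with Polq lowest at -1.34.

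Of the 50 members, 19 had every AAV-miR SOD1 library above every non-injected library (5.9% of all genes did), and none had every AAV-miR SOD1 library above all 9 controls (0.592% of all genes). No member had every AAV-miR SOD1 library below every AAV-miR ctrl library (2.46% of all genes) or below every non-injected library (5.81%). The same few libraries set this overlap for nearly all genes. AAV-miR SOD1 replicate 1 was the highest of its group for 43 members and replicate 2 for the other 7, and replicate 3 was the lowest for 45. AAV-miR ctrl replicate 1 was the highest of its group for 44 members, and exceeded AAV-miR SOD1 replicate 3 for 47. Non-injected replicate 5 was the highest of its group for 42.

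Over all genes tested, 26.6% had AAV-miR SOD1 replicate 1 highest in its group, 32.6% had replicate 3 lowest, 29.3% had AAV-miR ctrl replicate 1 highest and 25.7% had non-injected replicate 5 highest. AAV-miR SOD1 replicates 1 and 2 were both above all 9 controls for 43 members, against 8.69% of all genes tested. Leaving out AAV-miR ctrl replicate 1, 17 members had all AAV-miR SOD1 libraries above all remaining controls (3.46% of all genes). Leaving out AAV-miR SOD1 replicate 3 instead, 25 did (2.78%). Between the highest and the lowest of the 13 libraries the members spanned 3.07-fold (Pcna) to 17.3-fold (Polq), with a median of 6.20-fold.

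Whether the control vector itself went with a change in these genes was asked by comparing AAV-miR ctrl with non-injected mice, the contrast that the choice of genes did not use. No member passed an adjusted p of 0.05 in edgeR (0% of all genes tested), nor in DESeq2 (0.0115%) or limma-voom (0%). At an unadjusted p under 0.05, no member was higher (1.38% of all genes) and 1, Polq, was lower (2.24%). Without non-injected replicate 5, or with the libraries numbered 1 to 4 alone, 0 were lower and 1, Ndc80, was higher, and without AAV-miR ctrl replicate 4, Brca1 was also past that threshold, as higher. Fitted log2 fold changes were above 0 for 36 of the 50 members (48% of all genes), with a median of 0.20 beside -0.01 over all genes, and none exceeded 1 (3.21%). Without AAV-miR ctrl replicate 1 the median was -0.07 and 16 members were above 0. By group means of CPM, which include AAV-miR ctrl replicate 1, 36 members had the order AAV-miR SOD1, AAV-miR ctrl, non-injected, and 13 had the control groups exchanged.

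Polq had a log2 fold change of -1.34 ± 0.44 (SE) in AAV-miR ctrl against non-injected mice, with an unadjusted p of 0.0093 and an adjusted p of 1.00 in edgeR, and leaving out single libraries gave values from -1.55 to -0.93. Polq was chosen for a high level against AAV-miR ctrl among others, so its low level in AAV-miR ctrl is not independent of the choice. Wdhd1 had 0.48 ± 0.31 (SE) and Cdc45 -0.09 ± 0.41 (SE), both with groups that overlapped. Brca1 had the largest positive value, 0.95 ± 0.53 (SE). For Mki67 and Top2a the values were 0.28 ± 0.32 (SE) and 0.39 ± 0.31 (SE). Standard errors of the 50 members in this comparison ran from 0.25 to 0.53 on the log2 scale, which limits the size of a difference that could be detected.

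Genes of the same processes outside the list were examined with lists that were also drawn up with results of these data known. Of 46 other replication genes, 43 had a positive log2 fold change in AAV-miR SOD1 against both control groups (45.8% of all genes), with a median of 0.85, and 34 were higher (10.2%) and 0 lower (12.1%) at an unadjusted p under 0.05 in edgeR. The highest were Clspn, an adaptor of the checkpoint kinase, at 1.53, the helicase gene Recql4 at 1.45 and the origin recognition subunit Orc1 at 1.44. Orc4 and Orc5, 2 other subunits of that complex, had -0.30 and -0.27, and the polymerase delta subunit Pold2 had -0.03.

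Of 50 other mitosis genes, 49 were positive (45.8% of all genes) with a median of 1.09, and 45 were higher (10.2%) and 0 lower (12.1%) at an unadjusted p under 0.05. The phosphatase gene Cdc25c, which activates Cdk1, led with 1.61, followed by the kinesins Kif18b at 1.44 and Kif14 at 1.43. At the other end were securin (Pttg1) at -0.06, the checkpoint protein Bub3 at 0.01 and the kinase Wee1 at 0.36. No gene of either list passed the adjusted threshold in edgeR in any comparison. In AAV-miR ctrl against non-injected mice the medians of these lists were 0.09 and 0.13.

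**Figure D3:**
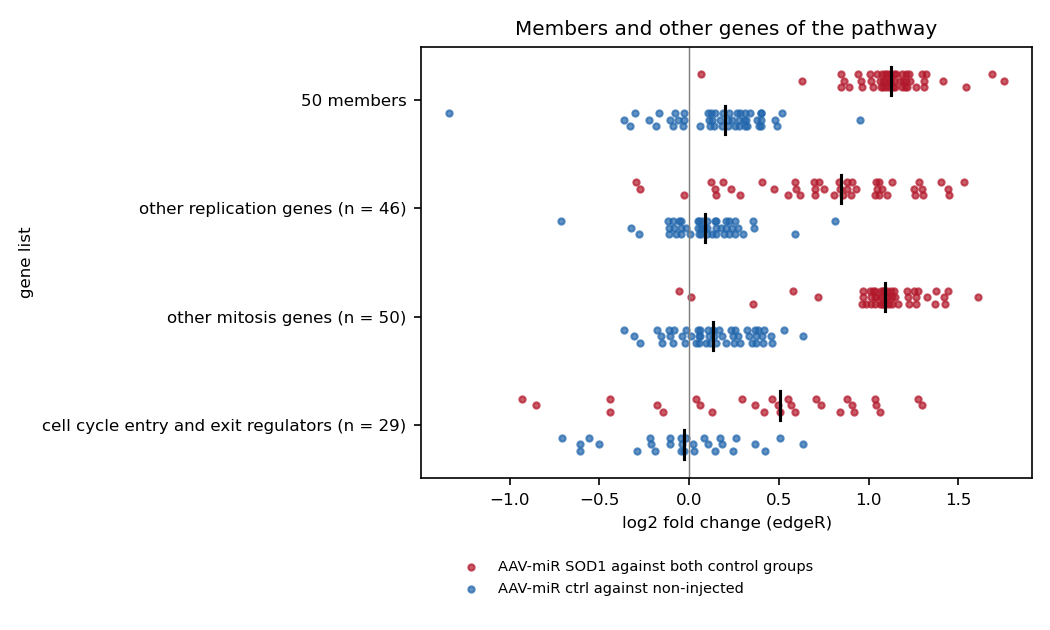
Log2 fold changes (edgeR) of the members and of 3 lists of related genes, each dot a gene and each black bar the list's median. In AAV-miR SOD1 against both control groups the medians are 1.12, 0.85, 1.09 and 0.51 from top to bottom, and in AAV-miR ctrl against non-injected they are 0.20, 0.09, 0.13 and -0.03.

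Markers of other cells that the captured tissue could hold were read in the same libraries. The 10 erythroid markers, among them the globin genes and the erythroid factors Klf1 and Gata1, summed to 48005, 44557, 21185 and 31224 CPM in AAV-miR SOD1, 28398, 17052, 12395, 3619.7 and 8729.8 CPM in AAV-miR ctrl and 20420.0, 5630.3, 8081 and 6083 CPM in non-injected mice. All 10 had a positive log2 fold change against both control groups (45.8% of all genes), with a median of 1.64. The counts of positive markers below are for the same comparison. In AAV-miR SOD1 the libraries stood in the same order for the erythroid sum as for the members, replicates 1, 2, 4 and 3. In AAV-miR ctrl replicates 1 and 3 led both sums, and in non-injected mice replicates 2 and 5 led both, in exchanged order. AAV-miR ctrl replicate 4 was the lowest of its group for the members, but above replicates 5 and 6 for the erythroid sum.

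Granule genes of neutrophils and their precursors, such as Elane and Mpo, summed to 29755 to 81511 CPM in AAV-miR SOD1, 10673 to 69156 CPM in AAV-miR ctrl and 15078 to 24187 CPM in non-injected mice. Of these 10 of 10 were positive (45.8% of all genes, here and for the lists that follow) with a median of 1.00. Markers of B-cell precursors, such as Vpreb1 and Rag1, ranged over 362 to 762, 237 to 596 and 94.0 to 360 CPM (11 of 11 positive, median 0.73). Platelet and megakaryocyte markers ranged over 295 to 2941, 25.7 to 1268 and 215 to 1012 CPM (5 of 5 positive, median 1.22). Microglial markers ranged over 728 to 1001, 417 to 1202 and 255 to 679 CPM (8 of 8 positive, median 0.52). Tyrobp had the most counts of this list in every library. The genes of the list did not move together, since AAV-miR ctrl replicate 5 had 4389 counts of Tmem119 and 19 of P2ry12. Which cells gave these reads was not tested. AAV-miR SOD1 replicates stood in the order 1, 4, 2 and 3 for the neutrophil sum and 4, 2, 1 and 3 for B-cell precursors. The order was 1, 3, 4 and 2 for platelet markers and 2, 1, 4 and 3 for microglial markers. None of the markers of these 5 cell types was at 0 in any library, and the part of these cells in the levels of the replication and mitosis genes was not tested.

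Markers of oligodendrocyte precursors, a dividing cell of the adult cord, ranged over 39.1 to 89.3, 44.9 to 96.3 and 54.8 to 83.2 CPM. Of these 3 of 6 were positive (45.8% of all genes), with a median of -0.00, and Gpr17 was at 0 in 2 libraries. Bone and cartilage markers ranged over 3196 to 8846, 2815 to 13771 and 1748 to 8342 CPM (5 of 7 positive, median 0.41). Endothelial and pericyte markers ranged over 170 to 318, 172 to 261 and 120 to 267 CPM (4 of 6 positive, median 0.17). Astrocyte markers ranged over 459 to 575, 568 to 1011 and 540 to 782 CPM (2 of 7 positive, median -0.29), and oligodendrocyte markers over 1193 to 2737, 1137 to 4532 and 1833 to 2815 CPM (0 of 6 positive, median -0.53).

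The 9 motoneuron markers, among them Chat, Isl1 and Mnx1, were present in all 13 libraries. They summed to 5023, 8026, 5024 and 6862 CPM in AAV-miR SOD1, 7049, 7569.9, 8149.7, 16545 and 14454 CPM in AAV-miR ctrl and 7090.3, 17247, 13473 and 11212 CPM in non-injected mice. Against both control groups 0 of 9 were positive (45.8% of all genes), with a median of -1.04. Controls numbered above 4 had 11212 to 16545 CPM. The other controls had 7049 to 8149.7 CPM, apart from non-injected replicate 3 at 17247 CPM, whose header contradicted its label. AAV-miR SOD1 replicates 1, 3 and 4 lay below every control, and replicate 2 inside the range of those lower controls. The part of this split in the difference was not tested.

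**Figure D4:**
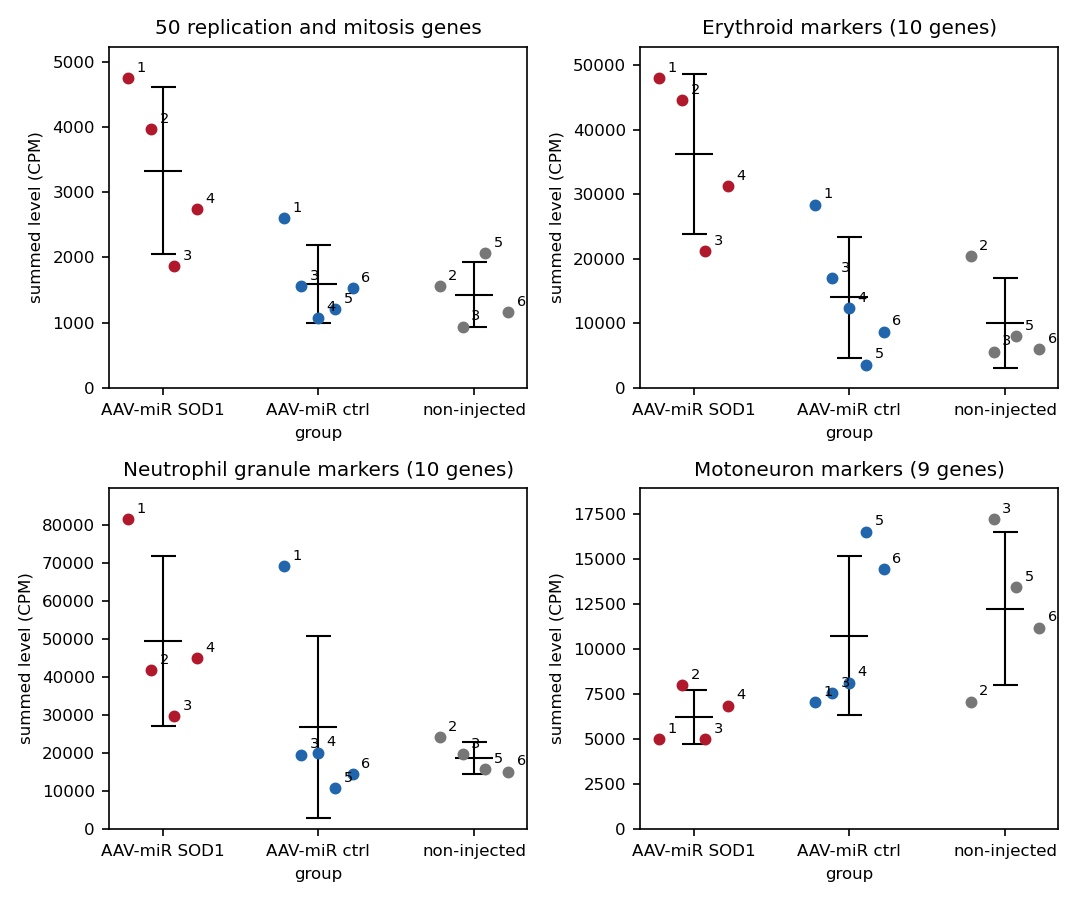
Summed CPM of the 50 members and of marker lists in each of the 13 libraries, by group, with replicate numbers beside the points and bars for the group mean ± SD. Member, erythroid and neutrophil granule sums are highest in AAV-miR SOD1 replicate 1. Motoneuron marker sums lie between 5023 and 8026 CPM in AAV-miR SOD1 and between 7049 and 17247 CPM in the controls.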

How the data were processed

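Per the labels' protocols, cDNA was made and amplified from total RNA of laser-captured motoneurons with the SMARTer Ultra Low kit, and libraries with Nextera XT. The authors deposited raw read counts per Ensembl gene. Cutadapt 1.8, STAR 2.5.2b, HTSeq 0.6.1 and the build GRCm38 are named in the submitters' processing notes; the annotation and the strand setting are not given in the sources used here, so reads over overlapping genes are uncertain. Rows that name no gene held 47.0% to 61.6% of each table's reads, mostly reads aligned to several places, and were left out. GENCODE M21 names matched 48349 of 48709 identifiers, which held 99.986% of counts.

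Groups and replicate numbers came from the sample titles. Genes were filtered with filterByExpr (minimum count 10, minimum total count 15) and libraries scaled by TMM. Tests were edgeR's quasi-likelihood F tests (edgeR 4.0.16, R 4.3.3) on all 13 libraries with 3 groups, Benjamini-Hochberg adjustment over 17403 genes and a threshold of 0.05; 10 residual degrees of freedom remained, and the biological variation between mice (BCV) was 0.470. Log2 CPM used a prior count of 2. The script was tested on simulated counts. Alternatives were other scalings and filters, DESeq2 1.42.0, limma-voom (limma 3.58.1) with quality weights, subsets of libraries, the replicate number as a block and the exchange of the libraries with contradicting headers. The members and all gene lists were chosen with earlier results of these data known. Genes described with values were the 3 genes of the choice, Mki67 and Top2a, the 5 highest and 5 lowest log2 fold changes against both control groups, the member with the highest mean CPM of each role, members with an unadjusted p under 0.05 between the control groups, and the 3 highest and 3 lowest of each related list; other members given by name were added after their values were seen. Exons shared between genes were read from GENCODE M21 and promoters from RefSeq (GRCm38.p6), which had 42 of the 50 members.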

Additional observations from a re-analysis of the deposited data

Results flagged for a closer look

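Within groups of 4 or 5 libraries the highest and the lowest value were set against the rest by Dixon's criterion at the 95% level. This was done for the members picked by the rules given above and for the summed lists. Members named after their values were seen, such as Ttk, Cdk1, Gins1 and Brca2, were not examined. Of 102 groups examined 8 held such a value, where 5.1 would be expected at 1 in 20, and 6 of the 8 were AAV-miR ctrl replicate 1. The groups come from the same 13 libraries and from genes that vary together. They are not independent, so 8 beside 5.1 is no test. Among the members, Gins2 stood at 33.8 CPM in AAV-miR ctrl replicate 1 beside 10.4 to 13.5 CPM in the other 4 libraries of that group, and Aurka at 63.8 CPM beside 27.6 to 36.9 CPM. In the same library the other replication genes summed to 1841 CPM beside 1091 to 1300 CPM, and the cell cycle entry and exit regulators to 1316 CPM beside 926 to 1035 CPM. Its neutrophil granule markers summed to 69156 CPM beside 10673 to 20130 CPM, and its microglial markers to 1202 CPM beside 417 to 562 CPM. Elsewhere, B-cell precursor markers summed to 762 CPM in AAV-miR SOD1 replicate 4 beside 362 to 409 CPM, and erythroid markers to 20420 CPM in non-injected replicate 2 beside 5630 to 8081 CPM.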

How the results depend on the processing

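Fold changes and counts of members were recomputed under 24 alternatives, 13 of which left out 1 library, and summed levels under 7 or 8. The median log2 fold change of the members stayed within the spread between mice in all 96 recalculations, from 0.82 to 1.30 against AAV-miR ctrl, 1.00 to 1.49 against non-injected mice, 0.92 to 1.36 against both control groups and -0.09 to 0.49 between the control groups, where the header exchange and leaving out AAV-miR ctrl replicate 1 (-0.07) gave negative values. Counts of members past the adjusted threshold moved with the tool: DESeq2 called 6 against AAV-miR ctrl (1.03% of all genes), 31 against non-injected mice (5.89%) and 44 against both control groups (8.74%), and limma-voom called 41 against both (8.4%); the cause was not tested. Leaving out single libraries gave 0 to 43 calls against both control groups (9.84% of all genes at 43) and 0 in the other comparisons. Members higher at an unadjusted p under 0.05 numbered 17 to 47 against AAV-miR ctrl, 35 to 49 against non-injected mice and 43 to 49 against both. The 17 came from edgeR on the libraries numbered 1 to 4 alone, where 891 of 18274 genes passed in either direction. For Cdc45 between the control groups the value of -0.09 became 0.41 with the libraries numbered 1 to 4 alone and ran from -0.43 to 0.26 without single libraries; the cause was not tested. Of the 8 pairs of same-numbered libraries, 3 had a correlation of deviations over 0.1, and all lay between -0.19 and 0.24. By that measure 3 of 13 libraries lay closest to their own number. Libraries numbered above 4, all of them controls, had 29.7 to 37.4 megacounts of assigned reads, beside 13.9 to 23.1 in the others. Reads aligned to several places made up 42.3% to 46.6% in them, beside 49.9% to 56.8%. This split is partly tied to group, and its cause was not tested. With the replicate block the members called stayed at 0 in all 4 comparisons, none was lower between the control groups at an unadjusted p under 0.05 (Polq without the block), and the medians were 0.99 against AAV-miR ctrl, 1.08 against non-injected mice, 1.02 against both and 0.15 between the control groups.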

Other observations

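Genes that decide whether a cell enters or leaves the cycle had log2 fold changes on both sides of 0. Of 30 such regulators 29 were tested in edgeR, and Cdkn2a was below the filter. In AAV-miR SOD1 against both control groups 23 were positive (45.8% of all genes) with a median log2 fold change of 0.51; at an unadjusted p under 0.05, 13 were higher (10.2%) and 1 lower (12.1%), and none passed the adjusted threshold. The highest were Tfdp2, a partner of the E2F proteins, at 1.30 ± 0.26 (SE), the retinoblastoma gene Rb1 at 1.27 ± 0.25 (SE) and the kinase gene Cdk6 at 1.07 ± 0.31 (SE). The lowest were the repressor E2f6 at -0.93 ± 0.49 (SE), the Cdk inhibitor gene Cdkn2b at -0.85 ± 0.45 (SE) and Lin37, a subunit of the DREAM complex that silences cell cycle genes in resting cells, at -0.44 ± 0.20 (SE). In AAV-miR ctrl against non-injected mice 13 of the 29 were positive (48% of all genes), with a median of -0.03.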
